A study of Mus musculus with 9 samples.

Results

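PBRM1 and BRG1 binding was examined at 7 endocannabinoid genes in primary oviductal smooth muscle cells of the mouse. The genes were taken as a fixed list of names, *Cnr1*, *Cnr2*, *Napepld*, *Dagla*, *Daglb*, *Faah* and *Mgll*, out of 21938 protein-coding genes of the GENCODE M21 annotation. For each gene, every peak was collected whose summit lay in the gene body or within 20 kb of either end. The 6 replicate peak lists held 83005 merged regions in all, and 38 of them (hereafter sites) fell in the 7 windows. Promoter peaks of a gene were those with a summit no more than 2 kb from an annotated transcript start of that gene. Other peaks that near to a start of a different gene were placed at the promoter of another gene, and the rest were called distal. PBRM1 signal, BRG1 signal or both were found at the promoters of 6 of the 7 genes. Of all protein-coding genes, 34.9% had no promoter peak in any replicate list, and nothing is read from the count of 6. *Napepld* and *Daglb* were at the upper end and *Cnr1*, *Mgll* and *Faah* at the lower end, while *Dagla* was called in a single list and *Cnr2* in none.

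All cells were wild-type (WT) and were isolated from oviducts on D2 (day 2) of pregnancy, from mice that the labels describe as 8 to 12 weeks old and mated to stud males. The cells were dissociated, filtered and kept in culture for some hours, and no knockout or nonpregnant sample was among them. ChIC-Seq (chromatin immunocleavage sequencing), in which an antibody guides a micrococcal nuclease to its target in fixed cells, was performed on 50000 cells a library with antibodies against PBRM1 (BAF180, which defines the PBAF type of SWI/SNF chromatin remodeler) or BRG1 (the SWI/SNF ATPase), with 3 libraries each. The purpose stated for the series was to find sites of direct binding. The 3 IgG samples were not analysed here.

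Endocannabinoids are lipid messengers made on demand from membrane phospholipids. Anandamide can be released by NAPE-PLD and is degraded by FAAH, whereas 2-arachidonoylglycerol is produced by the diacylglycerol lipases DAGLα and DAGLβ and degraded largely by monoacylglycerol lipase. Both lipids act on the G protein–coupled receptors CB1 and CB2. In the mouse oviduct, CB1 signaling and the anandamide level set by FAAH are known to be needed for timely passage of the embryo to the uterus, where CB1 acts together with adrenergic control of the oviductal muscle.

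The replicate libraries held 14284532 to 23992352 fragments and 31970 to 39467 peaks. Signal is given throughout as scaled pileup, the number of fragments covering the peak summit for every 1000000 fragments of that library. The weakest peak called in a replicate list had a scaled pileup between 0.333 and 0.42, so a site without a peak carries no value in that list and is not shown to be unbound. Because the caller was given no control library, cutting that did not depend on the antibody cannot be told apart from binding. The labels do not say whether replicates came from separate mice or cultures, and the p values therefore measure only the spread among these libraries. The label of the cells was set against promoter peaks of marker genes, which show binding and not expression. Of 7 smooth muscle genes, 4 (*Acta2*, *Tagln*, *Smtn* and *Mylk*) had a promoter peak in all 6 lists, *Des* had one in 4, *Myh11* in 1 and *Cnn1* in none. The share of all protein-coding genes with a promoter peak in all 6 lists was 41.4%. No gene among 6 epithelial, 3 immune, 3 endothelial and 3 stromal markers had a promoter peak in all 6 lists. However, *Kdr* had one in 5 lists, *Dcn* in the 3 BRG1 lists, and *Pdgfra* and *Csf1r* in 3 lists of mixed antibody. *Krt8* had one in 2 lists, *Krt18*, *Pecam1* and *Col1a1* in 1 list each, and the other such markers had none. All 3 stromal markers thus had a promoter peak in some list.

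The receptor genes *Cnr1* and *Cnr2* differed in both base composition and occupancy. Their upstream sequences are printed to show this contrast, as the 250 bases before the first start listed by RefSeq (GRCm38.p6), 5′ to 3′ on the coding strand, with CG dinucleotides in capitals. The *Cnr1* sequence, at chr4:33924014-33924263 on the plus strand, held 36 CG dinucleotides. The *Cnr2* sequence, at chr4:135894939-135895188 on the plus strand, held 3.
Cnr1: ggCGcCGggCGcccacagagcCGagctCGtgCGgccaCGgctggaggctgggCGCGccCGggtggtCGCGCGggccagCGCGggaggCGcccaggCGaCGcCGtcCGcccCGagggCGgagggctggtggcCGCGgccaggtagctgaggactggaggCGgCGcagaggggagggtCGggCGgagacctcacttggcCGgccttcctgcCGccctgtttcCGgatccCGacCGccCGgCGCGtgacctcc
Cnr2: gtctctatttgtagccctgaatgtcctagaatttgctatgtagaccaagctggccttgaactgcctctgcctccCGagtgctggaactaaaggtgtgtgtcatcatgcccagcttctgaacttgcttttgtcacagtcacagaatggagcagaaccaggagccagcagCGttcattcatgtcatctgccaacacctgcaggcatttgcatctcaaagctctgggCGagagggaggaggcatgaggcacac
From 250 bases before to 50 after each RefSeq start, the ratio of observed to expected CG was 0.928 for the first *Cnr1* start and 0.16 for the first *Cnr2* start, with 0.187 for the second *Cnr2* start. The other *Cnr1* starts listed by RefSeq had 0.93 and 0.312, so that the last of them was CG-poor too. The printed *Cnr1* bases lie just upstream of the peak region and share 0 bases with it. Among all 16505 protein-coding genes with such a sequence, 68.2% of those at 0.6 or more and 17.1% of those under 0.6 had a promoter peak in all 6 lists.

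*Cnr1*, which encodes CB1 (ENSMUSG00000044288.6, chr4:33924593-33948831, plus strand), held 1 site in its window, a 570 bp region at chr4:33924298-33924867. The region covered the first GENCODE start and the second RefSeq start, but not the first RefSeq start, whose upstream bases are printed above. The median summit lay 78 bp inside the principal transcript, in the untranslated part of exon 1. Its scaled pileup was 0.808, 1.10 and 0.917 in the PBRM1 libraries and 1.01, 0.98 and 1.13 in the BRG1 libraries. All 6 lists held this peak, the values of the antibodies overlapped, and the mean was 0.943 ± 0.149 for PBRM1 and 1.04 ± 0.0805 for BRG1 (SD, n = 3). The peak was weak among promoters, at percentiles 13.4 to 37.4 of genes with a promoter peak in the same list. No replicate peak was called elsewhere in the 64.2 kb window. The lists called on pooled replicates, which are deeper, added 1 PBRM1 peak in exon 2 with a scaled pileup of 0.258 and 1 BRG1 peak 838 bp from a *Cnr1* start with 0.398.

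*Cnr2*, which encodes CB2, the receptor known mainly from immune cells (ENSMUSG00000062585.11, chr4:135895394-135920207, plus strand), had no promoter peak in any of the 6 replicate lists or the 2 pooled lists. No promoter peak in a replicate list was found for 34.9% of protein-coding genes, and none in a replicate or pooled list for 30.3%. Its window still held 3 sites. The strongest, at chr4:135920403-135921789, was the promoter of the neighboring *Fuca1*, an α-L-fucosidase gene that starts just past the 3′ end of *Cnr2*. The others lay upstream of both *Cnr2* starts. One lay 18528 bp from the nearest *Cnr2* start but 2925 bp from a start of another gene, *Pnrc2*. It had a scaled pileup of 1.16 and 1.00 in PBRM1 replicates 1 and 3 and 1.54 and 1.60 in BRG1 replicates 2 and 3. The other was in 1 list of each antibody.

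Among the synthesis genes, *Napepld* and *Daglb* carried the strongest promoter signal of the 7 genes, whereas *Dagla* was marked mainly inside its introns. The sequences before the RefSeq starts of *Napepld* (chr5:21701623-21701872, minus strand) and *Daglb* (chr5:143464243-143464492, plus strand) lay wholly inside their peak regions. They are printed because these promoters had the highest signal, with CG in capitals as above.
Napepld: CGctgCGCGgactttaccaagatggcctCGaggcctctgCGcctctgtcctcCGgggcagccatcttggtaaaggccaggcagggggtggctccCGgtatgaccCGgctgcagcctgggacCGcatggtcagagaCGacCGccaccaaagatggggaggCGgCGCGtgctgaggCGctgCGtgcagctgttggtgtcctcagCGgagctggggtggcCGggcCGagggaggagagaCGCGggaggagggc
Daglb: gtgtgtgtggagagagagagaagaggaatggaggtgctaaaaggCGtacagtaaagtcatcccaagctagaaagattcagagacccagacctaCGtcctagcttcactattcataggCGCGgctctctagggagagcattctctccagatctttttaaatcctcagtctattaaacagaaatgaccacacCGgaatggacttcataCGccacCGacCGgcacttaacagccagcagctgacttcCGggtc
The *Napepld* sequence held 21 CG dinucleotides and the *Daglb* sequence held 9. The observed to expected ratio around the start was 0.781 for *Napepld* and 0.567 for *Daglb*.

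*Napepld* encodes the phospholipase that releases anandamide (ENSMUSG00000044968.16, chr5:21662901-21701396, minus strand). Its promoter site was a 1000 bp region at chr5:21701043-21702042 with the median summit at −148 bp from the start. The scaled pileup was 2.48, 1.71 and 1.54 in the PBRM1 libraries and 2.26, 2.80 and 2.73 in the BRG1 libraries. PBRM1 replicate 1 lay above BRG1 replicate 1, and the remaining PBRM1 values lay below all BRG1 values. The values ranked at percentiles 72.7 to 95 of promoters. Away from the promoter, a peak in intron 2 near 20.5 kb from the start was found in PBRM1 replicate 1 (0.758) and BRG1 replicate 3 (0.665) only. The other distal sites were in 1 list each. BRG1 replicate 3 had one in the same intron, 20203 bp from the start, and one downstream of the gene, with 0.865 at each. PBRM1 replicate 2 had one upstream of the gene (0.441). The far end of the window held the promoter shared by *Armc10* and its neighbor *Fbxl13*, described with the antibody comparison.

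*Daglb*, encoding the diacylglycerol lipase DAGLβ (ENSMUSG00000039206.13, chr5:143464584-143505942, plus strand), had the highest mean promoter signal of the 7 genes. The site at chr5:143464135-143465267 was 1133 bp wide, and the summits of the 6 lists lay within 38 bp of each other, with their median at −26 bp from the start. The scaled pileup was 2.07, 1.82 and 1.58 for PBRM1 and 2.96, 2.94 and 3.59 for BRG1. Every BRG1 value exceeded every PBRM1 value, which 56.8% of all tested regions also showed, while 0.756% showed the reverse. All 6 values ranked at percentiles 83.2 to 94.7 of promoters. The genes with the most similar promoter values over the 6 libraries, among 8636 compared, were *Sp4* (Euclidean distance 0.14 on the log2 scale) and *Atp5d* and *Cbarp* (0.185 each), which share 1 region.

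A second *Daglb* site was found in all 6 lists, 10952 bp downstream of the start in intron 4 (chr5:143475129-143476067). Its values were 1.21, 1.10 and 1.75 for PBRM1 and 1.32, 2.38 and 1.40 for BRG1. PBRM1 replicate 3 and BRG1 replicate 2 stood highest, and the groups overlapped. The same window reached the promoter of *Rac1*, a gene that overlaps the 3′ end of *Daglb*. The main *Rac1* site had a peak in 5 lists, with 1.36 and 1.08 in PBRM1 replicates 1 and 3 and 0.881, 0.98 and 1.20 in the BRG1 libraries. A second *Rac1* promoter site was called in PBRM1 replicates 2 and 3, with 0.993 and 0.834, so PBRM1 replicate 2 had a *Rac1* promoter peak too.

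*Dagla*, encoding DAGLα (ENSMUSG00000035735.10, chr19:10245265-10304877, minus strand), held 12 of the 38 sites, the most of the 7 genes, and 9 of the 12 were in 1 list only. Its own promoter was called only in BRG1 replicate 3, with a scaled pileup of 0.931 at the start and 0.798 at a second peak 1601 bp from a start. Exactly 1 list with a promoter peak was seen for 4.81% of protein-coding genes. Both pooled lists held a peak near the second position, with 0.485 for PBRM1 and 0.752 for BRG1, and the pooled BRG1 list also held the peak at the start (0.708). PBRM1 replicate 3 alone had a peak 181 bp from a start of *Myrf* and one 1007 bp from a start of *AC132148.1*, with a scaled pileup of 0.625 at each.

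In contrast, 2 sites in intron 1 of *Dagla* were found in all 6 lists. The site 25070 bp from the start (chr19:10279479-10280240) had 1.06, 1.16 and 1.04 for PBRM1 and 1.32, 1.26 and 1.13 for BRG1. BRG1 replicate 3 lay below PBRM1 replicate 2, so the groups overlapped narrowly. The site 7709 bp from the start (chr19:10296946-10297511) had 1.01, 0.883 and 0.75 for PBRM1 and 1.01, 1.47 and 1.06 for BRG1. A weaker site in intron 5, 38144 bp from the start, had 0.758 and 0.792 in PBRM1 replicates 1 and 3 and 1.45 in BRG1 replicate 1. The bases from 100 bp before to 100 bp after the median summit of the first of these sites (chr19:10279707-10279907, printed 5′ to 3′ on the minus strand, which is the coding strand of *Dagla*) are shown because they hold a match to the AP-1 letters TGANTCA, in capitals.
Dagla intron 1: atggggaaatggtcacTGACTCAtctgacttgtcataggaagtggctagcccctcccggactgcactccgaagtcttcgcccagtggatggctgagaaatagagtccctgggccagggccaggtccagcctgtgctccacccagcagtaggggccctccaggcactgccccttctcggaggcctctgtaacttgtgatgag
In windows reaching 250 bp to either side of the summit, searched on both strands, these letters were present in 54.7% of distal regions and 11% of promoter regions found in all 6 lists. The same *Dagla* window held a match to the TEAD letters GGAATG, present in 41.3% of distal regions. The *Daglb* intron 4 window held 1 AP-1 match, and the *Dagla* site nearer the start held neither but had 1 E-box (CAGCTG), present in 34.5% of distal regions. Such matches are descriptions of the sequence only.

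The breakdown genes *Faah* and *Mgll* each had a promoter peak in more BRG1 than PBRM1 lists, as did the synthesis gene *Dagla*. Outside the 7 genes, *Plcb1*, *Pparg* and *Gdpd1* did so too, and *Pla2g4e*, *Abhd6* and *Fabp7* went the other way. Of all protein-coding genes, 49.6% had a promoter peak in all BRG1 lists and 43.8% in all PBRM1 lists, and nothing is read from this order. The 4 other breakdown genes of the pathway, *Abhd6*, *Abhd12*, *Naaa* and *Ptgs2*, did not have more BRG1 lists, with 4 in all PBRM1 lists and 3 in all BRG1 lists. *Faah*, encoding the hydrolase that degrades anandamide (ENSMUSG00000034171.13, chr4:115967145-116017926, minus strand), was called at its promoter in the 3 BRG1 lists and in no PBRM1 replicate list, a pattern shared by 0.748% of protein-coding genes. The reverse pattern was found at none of the 7 genes and at 0.105% of protein-coding genes. The scaled pileup was 0.944, 0.77 and 1.06 in the BRG1 libraries (0.926 ± 0.148, SD, n = 3). Since this site has no PBRM1 value in the replicate lists, the difference was not tested. The pooled PBRM1 list did hold a *Faah* promoter peak, with a scaled pileup of 0.355 against 0.907 in the pooled BRG1 list. The BRG1 values stood low among promoters, at percentiles 5.59 to 17.3. The site (chr4:116017331-116017953) had its median summit 29 bp inside exon 1, in untranslated sequence. The 250 bases before the RefSeq start (chr4:116017925-116018174, minus strand) are printed because this promoter alone among the 7 was split between the antibodies in this manner. They held 9 CG dinucleotides, and 29 of the bases lay inside the peak region.
Faah: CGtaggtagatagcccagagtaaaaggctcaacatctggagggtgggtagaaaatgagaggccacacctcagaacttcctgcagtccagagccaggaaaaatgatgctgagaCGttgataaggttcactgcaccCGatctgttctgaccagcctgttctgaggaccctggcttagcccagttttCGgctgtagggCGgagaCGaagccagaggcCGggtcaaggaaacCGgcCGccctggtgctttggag

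The other *Faah* site lay downstream of the gene (chr4:115962840-115963358) and was present in 5 lists. It had 0.606 and 0.458 in PBRM1 replicates 1 and 3 and 0.755, 0.91 and 1.13 in the BRG1 libraries. Each BRG1 value exceeded both PBRM1 values, an order that 56.8% of the tested regions found in all 6 lists also showed for all their values. PBRM1 replicate 2 had no peak anywhere in the *Faah* window. No other replicate peak was called in its 90.8 kb.

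*Mgll*, encoding monoacylglycerol lipase (ENSMUSG00000033174.17, chr6:88724412-88828360, plus strand), had a promoter peak in 5 lists, as did 7.15% of protein-coding genes. The site at chr6:88724456-88725325 had 0.859 and 0.662 in PBRM1 replicates 1 and 2, no peak in PBRM1 replicate 3, and 1.13, 0.98 and 0.998 in the BRG1 libraries. All 3 BRG1 values exceeded both PBRM1 values, and the pooled lists gave 0.662 for PBRM1 and 0.973 for BRG1. Every BRG1 value lay above every PBRM1 value at 56.8% of the tested regions found in all 6 lists, so nothing is read from this order. PBRM1 replicate 3 was the deepest library, with 23992352 fragments, and the part of depth in its missing peak was not tested. *Mgll* was the longest of the 7 genes and held 10 sites, 6 of them in 1 list. An intron 2 site 21893 bp from the start was in 4 lists, with 0.909 and 0.828 in PBRM1 replicates 1 and 2 and 0.755 and 1.40 in BRG1 replicates 1 and 3. The promoter site lay 203 bp from a start of the antisense gene *Gm26588*. The strongest site of the window belonged to *Abtb1*, the next gene downstream, and lay 551 bp from a start of *Gm15612* and 1417 bp from a start of *Podxl2*. An intronic peak of PBRM1 replicate 3 (0.458) lay 1299 bp from a start of *Gm44005*.

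**Figure D1:**
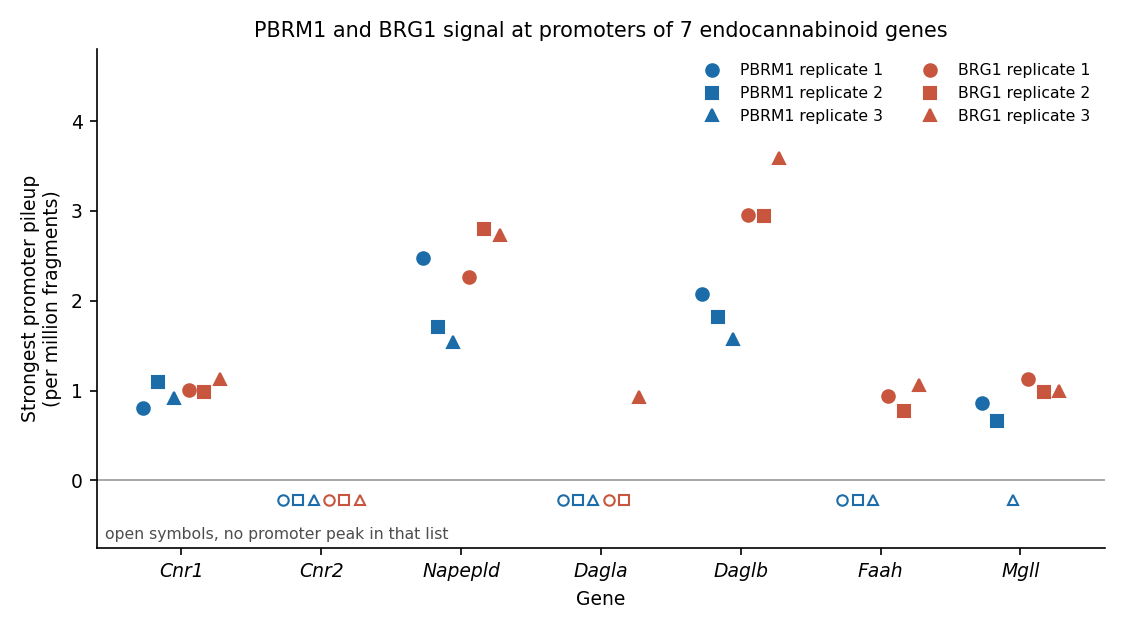
Strongest promoter peak of each of the 7 genes in each of the 6 replicate libraries, as scaled pileup (per 1000000 fragments), with PBRM1 in blue, BRG1 in red and a symbol for each replicate. Open symbols below 0 mark lists without a promoter peak. *Napepld* and *Daglb* sit between 1.54 and 3.59, *Cnr1* between 0.808 and 1.13, *Faah* has BRG1 values only, and *Cnr2* has none.

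In sum over genes, 3 of 7 (*Cnr1*, *Napepld* and *Daglb*) had a promoter peak in all 6 lists, against 41.4% of protein-coding genes. By antibody, 3 of 7 had one in all PBRM1 lists (43.8% of protein-coding genes) and 5 of 7 in all BRG1 lists (49.6%). Both pooled lists held a promoter peak for 6 of 7 genes, compared with 63.5% of protein-coding genes.

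Across the windows, the 38 sites comprised 7 at a promoter of the gene itself, 8 at the promoter of another gene and 23 distal. Of the 7 own-promoter sites, 3 were in all 6 lists and 2 in 1 list. Of the 23 distal sites, 3 were in all 6 lists, all inside introns of the principal transcript of *Dagla* or *Daglb*, and 13 were in 1 list. Of all 38 sites, 9 were in all 6 lists, or 23.7% against 15.5% of merged regions in the series, and 18 were in 1 list, or 47.4% against 47%. Both antibodies were represented at 17 sites, PBRM1 lists alone at 10 and BRG1 lists alone at 11.

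The windows held 18, 16 and 20 peaks in the PBRM1 lists and 20, 16 and 23 in the BRG1 lists, which gave 18 ± 2 and 19.7 ± 3.51 peaks (SD, n = 3). These ranges overlapped. Per 100 kb of window and averaged over the 6 lists, *Cnr2* had 4.11 peaks, *Dagla* 4.02, *Daglb* 3.89, *Napepld* 3.61 and *Mgll* 2.66, and *Cnr1* (1.56) and *Faah* (1.47) were the lowest. The median of all protein-coding genes was 2.49. The rank of *Cnr2* came from sites that were not at its own promoter.

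**Figure D2:**
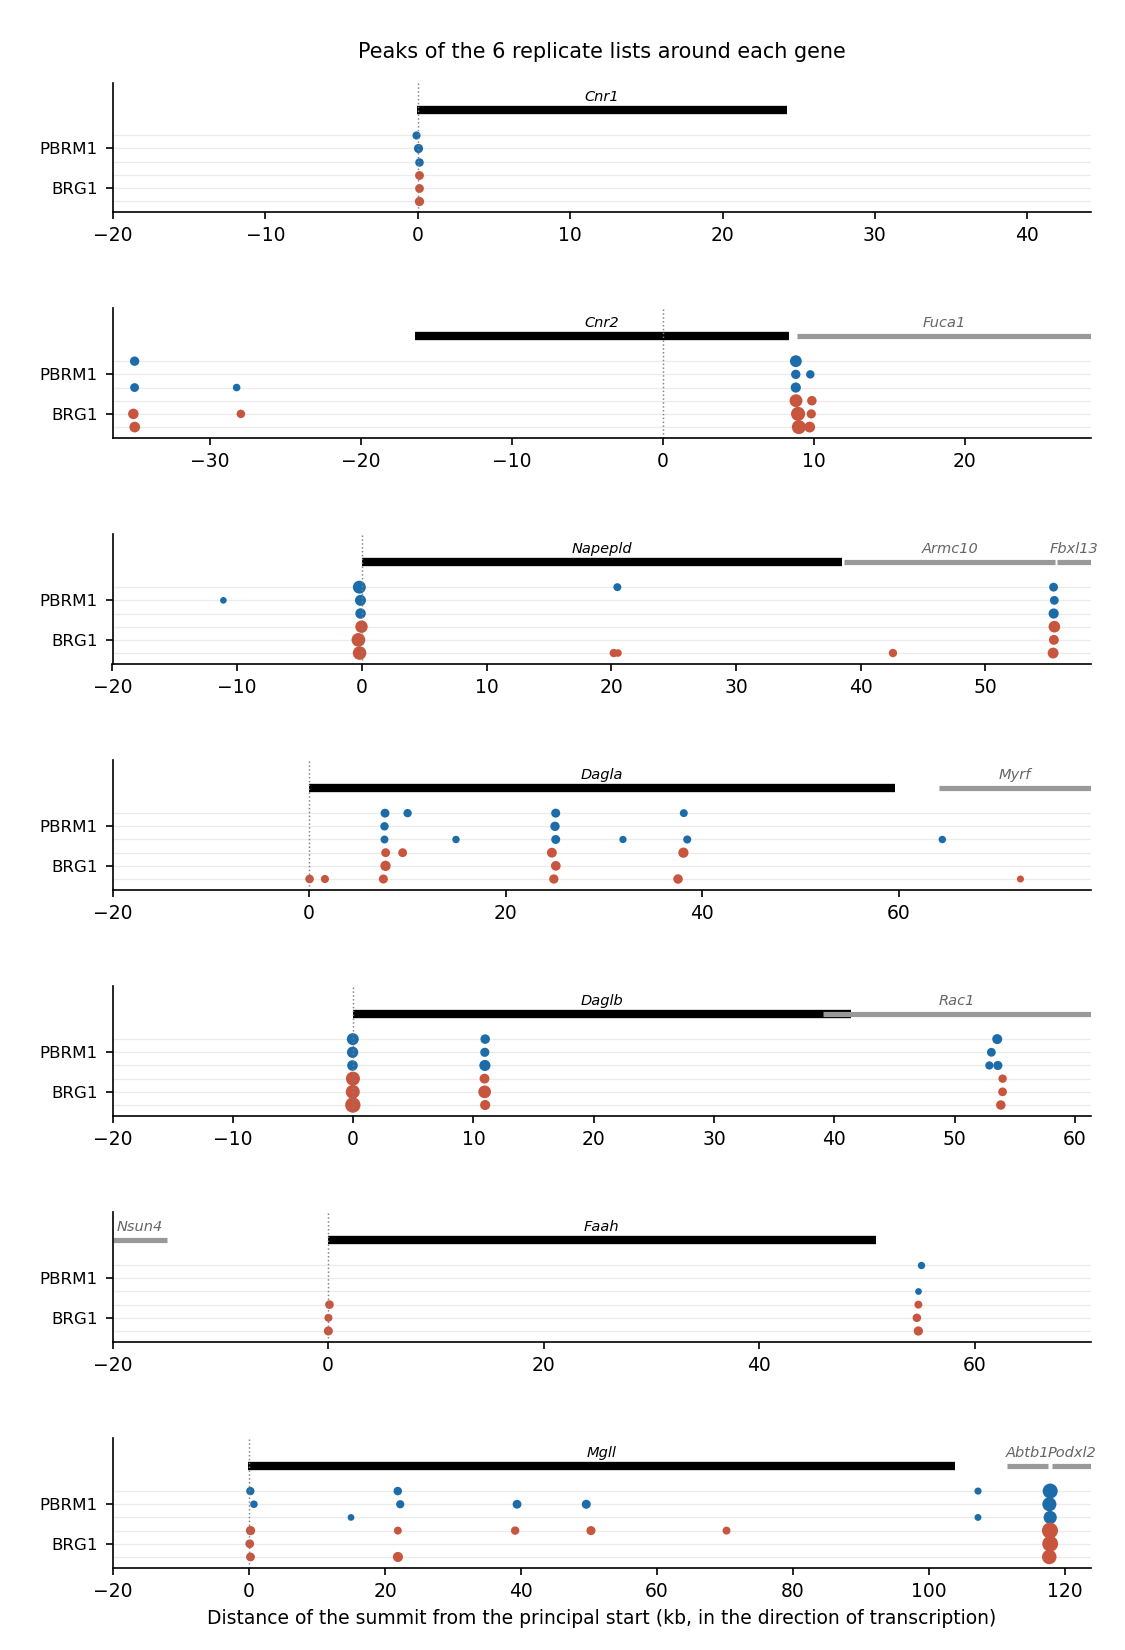
Peaks of the 6 replicate lists in the window of each gene. The x axis is the distance of the summit from the start of the principal transcript in kb, each row is 1 library (PBRM1 replicates 1 to 3 in blue, BRG1 replicates 1 to 3 in red), dot area grows with scaled pileup, the black bar is the gene and gray bars are other protein-coding genes. *Cnr1* has 1 column of peaks at its start, *Dagla* has its full columns inside the gene, and the column at the right of the *Cnr2* window is the *Fuca1* promoter.

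The signal of the antibodies was compared at the 9 sites with a peak in all 6 lists, by limma on log2 scaled pileup fitted over the 12830 such regions on chromosomes 1 to 19, X and Y, with Benjamini-Hochberg adjustment. BRG1 was called higher at 4 sites, the promoters of *Daglb*, *Napepld*, *Fuca1* and *Armc10*, and PBRM1 at none. The number called was 2 without PBRM1 replicate 2 and likewise 2 without BRG1 replicate 3. The BRG1 mean exceeded the PBRM1 mean at all 9 sites. Over all tested regions, however, BRG1 was higher at 52.9% and PBRM1 at 0.413%, and the median difference (PBRM1 minus BRG1) was −0.485 on the log2 scale, compared with −0.41 for the 9 sites. After each library was centred on its own median, none of the 9 sites was called by limma (2 at an unadjusted p under 0.05), and of all regions 2.45% were called higher for BRG1 and 2.24% for PBRM1. With the deposited fold enrichment in place of pileup, the *Daglb* promoter alone was called among the 9, and of all regions 10.7% were called higher for BRG1 and 0.218% for PBRM1. BRG1 was the higher antibody in 99.2% of called regions by pileup, 52.2% after centring and 98% by fold enrichment. The values below are therefore to be read against the shift of all regions.

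At the *Daglb* promoter, the mean scaled pileup was 1.83 ± 0.244 for PBRM1 and 3.16 ± 0.372 for BRG1, a log2 difference of −0.80 (SE 0.18, adjusted p = 0.000187). This was −0.31 beyond the median of all regions, at percentile 13.8 of the differences, and the call was lost after centring (adjusted p = 0.192) and kept with fold enrichment (adjusted p = 0.0452). At the *Napepld* promoter, the means were 1.91 ± 0.498 and 2.6 ± 0.291 (log2 difference −0.47, SE 0.18, adjusted p = 0.0258), which is 0.02 from the median of all regions. Without PBRM1 replicate 2 or 3 or BRG1 replicate 2 or 3 the *Napepld* promoter was no longer called, with adjusted p between 0.0866 and 0.142. At the *Cnr1* promoter, the difference was −0.15 (SE 0.22, adjusted p = 0.57), and it turned to 0.32 after centring and 0.05 with fold enrichment, neither of which was called.

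The intronic sites did not pass the threshold. The difference was −0.19 (SE 0.21, adjusted p = 0.459) at the *Dagla* site 25070 bp from the start, −0.41 (SE 0.22, adjusted p = 0.107) at the *Dagla* site 7709 bp from the start and −0.30 (SE 0.21, adjusted p = 0.209) in intron 4 of *Daglb*. All 3 turned positive after centring, at 0.28, 0.05 and 0.16, without a call.

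Among the promoters of neighboring genes, *Fuca1* had 2.02, 1.16 and 1.42 for PBRM1 and 2.45, 3.01 and 2.93 for BRG1, with no overlap (log2 difference −0.90, SE 0.19, adjusted p = 9.05e-05). Of the 9 sites, only this one and the *Daglb* promoter had groups that did not overlap, beside 56.8% of all tested regions with every BRG1 value above every PBRM1 value. The *Fuca1* call was lost after centring (adjusted p = 0.122) and with fold enrichment (adjusted p = 0.388). The *Armc10* promoter (chr5:21645382-21646454) had 1.01, 0.993 and 1.42 for PBRM1 and 1.95, 1.33 and 1.66 for BRG1, and BRG1 replicate 2 lay below PBRM1 replicate 3 (−0.53, SE 0.21, adjusted p = 0.0262). This call was lost without PBRM1 replicate 1 or 2 or BRG1 replicate 1 or 3, with adjusted p between 0.0724 and 0.156. The *Abtb1* promoter (chr6:88841512-88842745) had the highest PBRM1 values of any site in the windows, 3.44, 2.98 and 2.58, beside 3.96, 3.85 and 3.19 for BRG1 (−0.29, SE 0.16, adjusted p = 0.115). Its difference became 0.17 after centring and 0.41 with fold enrichment (adjusted p = 0.497 and 0.0778).

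**Figure D3:**
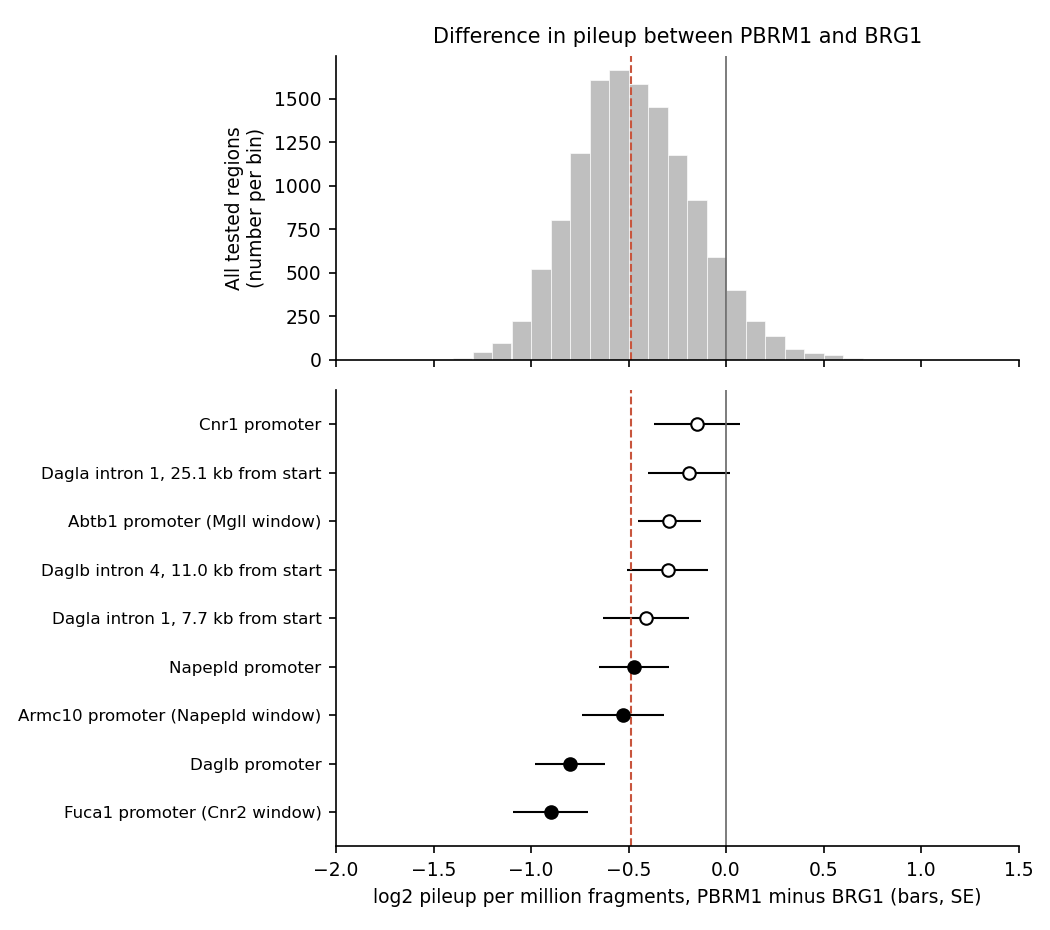
Difference in log2 scaled pileup, PBRM1 minus BRG1, for all 12830 regions found in the 6 lists (histogram) and for the 9 sites in the windows (points with SE bars, filled where the adjusted p was under 0.05). The dashed line is the median of all regions, −0.485, and the gray line is 0. The points run from −0.90 at *Fuca1* to −0.15 at *Cnr1*, all to the left of 0 and on both sides of the median.

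The promoter windows, again 250 bp to either side of the summit, also differed in the letters they held. The SP/KLF letters GGGCGG, present in 76.4% of promoter regions, were found 6 times at *Napepld*, 2 times each at *Cnr1*, *Faah* and *Mgll*, and were not matched at *Daglb*. The *Daglb* window instead held 1 match each to the TEAD, ETS (CCGGAAG) and E-box letters, which occurred in 19%, 24.6% and 25.8% of promoter regions. None of the 8 windows searched, at 5 promoters and 3 intronic sites, matched the forkhead letters TGTTTAC or the letters of the progesterone and glucocorticoid response element. Both are rare in the series, in 3.58% and 0.779% of promoter regions and in 6.49% and 1.58% of distal regions, and nothing is read from their absence in 8 windows.

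A list of 19 further genes of endocannabinoid signaling was described in the same way. All 19 were annotated. A promoter peak in all 6 lists was found for 8 of 19 (41.4% of protein-coding genes), none in any replicate list for 3 of 19 (34.9%), and one in 1 to 5 lists for the remaining 8. These shares are near those of all genes, and nothing is read from them. The genes with none in a replicate list were the G protein–coupled receptors *Gpr55*, *Gpr18* and *Gpr119*, like *Cnr2* and unlike *Cnr1* among the 7. The pooled BRG1 list held a promoter peak for *Gpr18* and the pooled PBRM1 list held one for *Gpr119*. *Gpr55* and *Cnr2* had none in either pooled list. By role, a promoter peak in all 6 lists was found for 1 of 6 other receptors (the nuclear receptor *Ppara*), 2 of 6 other synthesis genes (*Abhd4* and *Gde1*), 3 of 4 other breakdown genes (*Abhd12*, *Naaa* and *Ptgs2*) and 2 of 3 binding proteins (*Cnrip1* and *Fabp5*). *Abhd4*, which acts on the precursor of anandamide, had a scaled pileup of 2.17, 1.93 and 2.42 for PBRM1 and 4.09, 2.66 and 5.19 for BRG1, above *Napepld* in 4 of 6 libraries. *Plcb1*, a phospholipase C gene, shared the pattern of *Faah*, with 0.818, 0.98 and 0.931 in the BRG1 lists and no PBRM1 replicate peak. By number of lists only, other genes went the other way. *Pla2g4e* was called in 3 PBRM1 lists and 1 BRG1 list, and *Abhd6* and *Fabp7* in 3 PBRM1 and 2 BRG1 lists each. The scaled pileup of *Fabp7* was 0.556, 0.717 and 0.5 for PBRM1 and 0.98 and 0.798 for BRG1. That of *Abhd6* was 0.96, 1.10 and 0.959 against 1.45 and 1.05, and that of *Pla2g4e* 0.556, 0.552 and 0.542 against 0.56. A list without a call has no value, so these counts do not show a higher PBRM1 signal. Over the 19 genes, 11 had a promoter peak in all PBRM1 lists and 11 in all BRG1 lists.

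**Figure D4:**
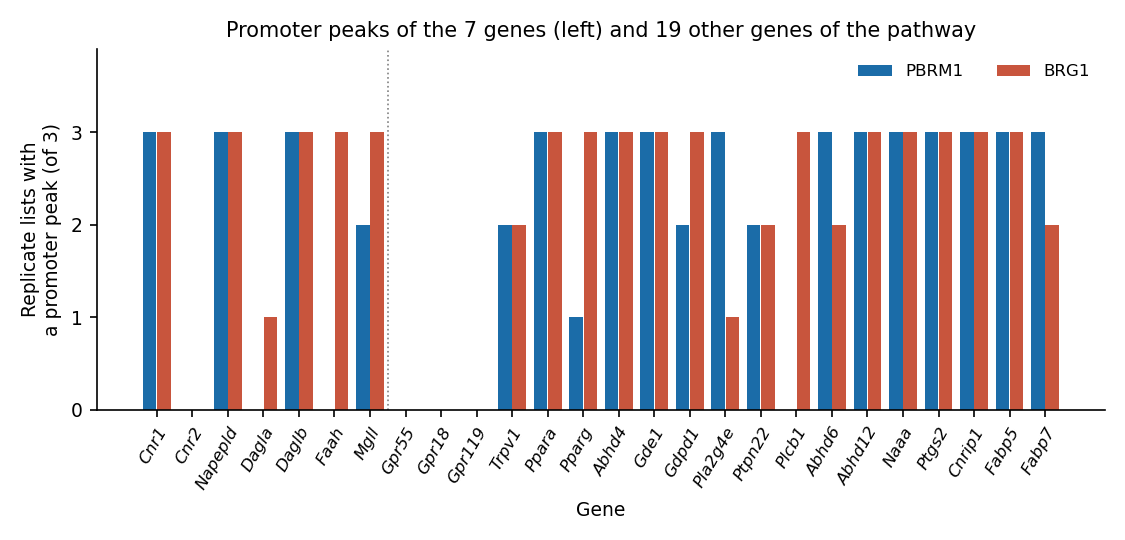
Number of replicate lists (of 3 for each antibody) with a promoter peak for the 7 genes, left of the dotted line, and for 19 other genes of the pathway. Bars are PBRM1 in blue and BRG1 in red. *Faah* and *Plcb1* have 3 BRG1 lists and no PBRM1 list, and *Cnr2*, *Gpr55*, *Gpr18* and *Gpr119* have no bar.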

How the data were processed

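ChIC-Seq peak lists of 3 PBRM1 and 3 BRG1 libraries were used, together with 1 list for each antibody called by the authors on its pooled replicates. Per the labels, the authors' processing used cutadapt, Bowtie2 and MACS2 with GRCm38.p5, and filters on reads are not given in the sources used here. Per the file headers, peaks were called by MACS 2.2.7.1 on paired-end fragments with all duplicates kept, no control, a local background over 10 kb and a q cutoff of 0.05. The deposited values are the pileup, a coverage signal that is not scaled between libraries, the fold enrichment, a ratio of pileup to local background, and the q-value as −log10 q. No peak of the lists ended beyond a GRCm38.p6 chromosome.

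Scaled pileup was pileup for every 1000000 header fragments. As values are whole fragments before scaling, small differences between weak peaks amount to a few fragments. Peaks of the 6 lists were merged on 1 bp of overlap, and the highest pileup of each library in a region was used. A region with a peak in every list was tested by limma 3.58.1 (R 4.3.3, eBayes with trend, two-sided, Benjamini-Hochberg, threshold 0.05). A check of the code on simulated data held no shift common to all regions, so it does not bear on calls made under such a shift. The file units are neither read counts nor comparable without this scaling. Regions lacking a peak in any list were described and not tested. A further 12 regions in all 6 lists lay off chromosomes 1 to 19, X and Y and were not tested. Sequences were read with pysam 0.24.0. RefSeq promoter sequences (GRCm38.p6) matched 6 of 7 genes, and none was matched for *Dagla*. Alternatives covered scaling, fold enrichment, a −log10 q of at least 5, overlap, window and promoter widths, a replicate block and the omission of each library.

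The genes, pathway and marker lists were chosen with earlier results of these data known. All 7 genes were named. Other pathway genes were named by the most or fewest lists with a promoter peak, neighbors where a peak lay within 2 kb of their start, and similar genes as the 3 nearest the strongest promoter. *Plcb1*, *Pparg*, *Gdpd1*, *Pla2g4e*, *Abhd6*, *Fabp7*, *Des*, *Myh11* and the markers of other cell types with a promoter peak were picked out with their values already seen.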

Additional observations from a re-analysis of the deposited data

How the results depend on the processing

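The number of the 9 sites called was 4, and it became 0 when libraries were centred on their medians, 1 with fold enrichment, and 2 to 3 when 1 library was left out, with 2 without PBRM1 replicate 2 or BRG1 replicate 3. It was 4 with regions in at least 2 lists of each antibody, at least 100 bp of overlap, or a −log10 q of at least 5, which left 7 sites to test. Called regions of the series went from 6846 to 602 after centring, 1399 with fold enrichment and 5028 to 6462 with 1 library left out. Centring changed the sign at *Cnr1* (0.317), both *Dagla* intron 1 sites (0.281 and 0.0546), *Daglb* intron 4 (0.164) and *Abtb1* (0.172), and fold enrichment did so at *Cnr1* (0.054), the farther *Dagla* site (0.249), *Daglb* intron 4 (0.0965) and *Abtb1* (0.414). None of these 9 values was called, and the cause was not tested. Of 106 alternative values for single sites, 82 kept direction and call and 15 kept the direction but lost the call.

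Mean peaks in the windows were 13.3 for PBRM1 and 15.3 for BRG1 with flanks of 10 kb, 31 and 33 with 50 kb, and 10 and 11 at a −log10 q of at least 5. With the same number of peaks from every list, 31970, they were 16.3 and 16.7. The 3 genes with a promoter peak in every list remained *Cnr1*, *Napepld* and *Daglb* under every alternative, and *Mgll* joined them (4 genes) without PBRM1 replicate 3. With the replicate number as a block, 4 sites and 6639 regions were called. For libraries with the same number, the correlations of their deviations from the antibody mean were 6.19e-06, 0.00374 and −0.0286. Such values cannot show whether these libraries came from the same mice or culture, which the labels do not say. *Faah*, *Dagla* and *Mgll* had promoter peaks in both pooled lists but not in every replicate list. The PBRM1 libraries were deeper than the BRG1 libraries, and PBRM1 scaled pileup was lower at most tested regions, with a median log2 difference of −0.485. The part of either in this was not tested.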

Other observations

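The pooled lists held 49 PBRM1 and 42 BRG1 peaks in the windows of the 7 genes, of which 34 and 34 were shared between the antibodies. Of all of them, 22 PBRM1 and 19 BRG1 peaks had no peak in a replicate list of the same antibody. One of them was a BRG1 peak inside the annotated span of *Faah*, but downstream of its principal transcript (chr4:115984232-115984501). It had a scaled pileup of 0.531 and a fold enrichment of 4.31. Another was a BRG1 peak 3375 bp from a *Cnr2* start (chr4:135898561-135898810) with 0.376. The *Daglb* locus also had a pooled PBRM1 peak in intron 2 (chr5:143471052-143471311) with 0.452. No replicate spread can be given for these peaks.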
